A study of Mus musculus with 6 samples.

Results

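The 7 genes described here encode connexins: Gja1, Gja4, Gjb1, Gjb2, Gjb5, Gjb6 and Gjc1. They were found by gene symbol in a table of 24054 genes counted in mouse salivary gland, and each symbol matched 1 row. The table covers 6 libraries of poly(A)-selected RNA, 3 from control mice and 3 from K5-rtTA:TetO-RANKL mice (K5-RANKL in what follows). In K5-RANKL mice the keratin 5 promoter, active in basal epithelial cells, drives the doxycycline-dependent activator rtTA, which in turn switches on a RANKL transgene behind a TetO promoter. RANKL is the TNF family cytokine that the Tnfsf11 gene encodes. Controls were monogenic, with the transgene they carried not given in the sources used here. Doxycycline was given to mice of both genotypes, in their food and in their water, for 2 weeks, starting when they were 9 weeks old. Strain, sex and which salivary gland was taken were likewise not given. Each library was a pool of glands from 5 mice, called a pool in what follows, and the p-values below measure the spread between 3 pools per group.

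Connexins are membrane proteins that assemble into rings, and the rings of neighbouring cells dock to form gap junction channels. The channels pass ions, calcium-mobilising messengers and small metabolites, and which connexins a cell makes sets what passes and which neighbours it can couple to. In salivary glands, acinar cells are coupled by channels of Gjb1 and Gjb2 products, and the Gja1 product is best known from myoepithelial and basal cells. By their connexin names in RefSeq, Gjb1 encodes Cx32, Gjb2 Cx26, Gja1 Cx43, Gja4 Cx37, Gjb5 Cx31.1, Gjb6 Cx30 and Gjc1 Cx45. The members are not all best known from epithelium: Gja4 is a connexin of arterial endothelium, and Gjc1 one of smooth muscle, pericytes and cardiac conduction tissue.

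Control pools had 13875951 to 17921815 counts in total, and K5-RANKL pools 14149734 to 16412579. Tnfsf11 stood at 3.78, 1.86 and 0.938 CPM in the controls and at 701, 405 and 723 CPM in the K5-RANKL pools, so each library matched its label. CPM are counts per 1e6 counts of a library size scaled by TMM, a trimmed mean of the log ratios between libraries. The TMM factor averaged 0.708 ± 0.0291 over control pools and 1.41 ± 0.0801 over K5-RANKL pools (SD, n = 3 each), and scaling by library totals alone moved the median over the 14044 genes tested from 0.01 to 1.01 on the log2 scale. All directions refer to TMM-scaled values, and gene groups that turned by library totals are named. Salivary gland identity was clear in the controls, where 13 acinar marker genes summed to between 192368 and 197393 CPM.

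Of the 7 members, 6 had enough counts to be tested, of which 5 rose and 1 fell in K5-RANKL glands. Among all genes tested, 66.2% were called, 34.2% higher and 32.1% lower by the same rule (edgeR quasi-likelihood test, Benjamini-Hochberg adjusted p under 0.05). The 2 groups of pools did not overlap in CPM for these 6 members, nor for 70.4% of all genes tested, 36.3% higher and 34.1% lower in K5-RANKL pools. Gjb1 fell while Gjb2, Gja1, Gja4, Gjb5 and Gjc1 rose, and Gjb6 had too few counts to test. All 6 tested members kept their direction by library totals. K5-RANKL 2, the pool with the least Tnfsf11 of its group, was the lowest of its group for Gja1, Gja4 and Gjc1 and the highest for Gjb1. Gjb2 was lowest in K5-RANKL 1 and Gjb5 in K5-RANKL 3, so not all members that rose had this order. A link to the level of Tnfsf11 was not tested. K5-RANKL 2 was also left out of the fit. Without it the log2 fold changes were 1.42 for Gja1, 1.87 for Gja4, 0.76 for Gjc1, −2.18 for Gjb1, 1.34 for Gjb2 and 2.87 for Gjb5, and the 6 calls held. Gjb5 passed the filter on low counts through the K5-RANKL pools alone, so it could only be tested because it was higher there, and the count of 5 is not support for a direction of the family.

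Promoter sequences are shown for the members with the most counts, because Gjb1 went the opposite way to Gjb2 and Gja1. Each is the 250 bases before a RefSeq transcription start in GRCm38.p6, read 5′ to 3′ on the gene's strand. For Gjb1, which has 4 starts in the table, the outermost and innermost are shown, and the counts per gene do not tell which start was used. Capitals mark matches, on either strand, to 5 motifs: the AP-1 site TGANTCA, the GC box GGGCGG, the TATA box TATAAA, the E-box CAGCTG and the NF-kB consensus.
Gjb1, outermost start, chrX:101376126-101376375, plus strand: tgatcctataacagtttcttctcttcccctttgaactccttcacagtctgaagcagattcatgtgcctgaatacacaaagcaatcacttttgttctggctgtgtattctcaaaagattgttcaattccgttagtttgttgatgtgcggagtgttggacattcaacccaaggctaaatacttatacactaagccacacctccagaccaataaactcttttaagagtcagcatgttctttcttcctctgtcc
Gjb1, innermost start, chrX:101383482-101383731, plus strand: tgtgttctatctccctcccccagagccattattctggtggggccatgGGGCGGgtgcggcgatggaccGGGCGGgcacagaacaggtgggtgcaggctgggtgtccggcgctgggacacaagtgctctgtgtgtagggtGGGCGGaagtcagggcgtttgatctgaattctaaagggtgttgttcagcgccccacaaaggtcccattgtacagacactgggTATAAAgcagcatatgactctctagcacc
Gjb2, chr14:57104703-57104952, minus strand: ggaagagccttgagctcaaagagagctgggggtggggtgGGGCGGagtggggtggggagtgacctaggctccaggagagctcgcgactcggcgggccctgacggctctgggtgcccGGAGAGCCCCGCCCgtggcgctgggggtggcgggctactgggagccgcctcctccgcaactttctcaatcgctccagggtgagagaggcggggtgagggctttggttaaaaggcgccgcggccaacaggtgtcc
Gja1, chr10:56377050-56377299, plus strand: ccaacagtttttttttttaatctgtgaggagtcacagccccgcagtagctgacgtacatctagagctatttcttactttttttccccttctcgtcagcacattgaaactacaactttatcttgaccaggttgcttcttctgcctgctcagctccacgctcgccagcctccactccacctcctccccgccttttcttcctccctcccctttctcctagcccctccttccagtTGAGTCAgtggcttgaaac

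The outermost Gjb1 window held no match to any of the 5 motifs. The innermost held 3 GC boxes, which begin 203, 182 and 111 bases before the start, and a TATA box 29 bases before it. The Gjb2 window held 2 GC boxes, at 211 and 126 bases before the start, and an NF-kB match at 134 bases that overlaps the second of them. The Gja1 window held an AP-1 match 19 bases before the start. Over the 300-base windows around all 32851 starts in the RefSeq table, the AP-1 site was found in 7.81%, the GC box in 35.7%, the TATA box in 13.6%, the E-box in 16.3% and the NF-kB consensus in 8.46%. Of the members not printed, the Gja4 window held a GC box 79 bases before the start, the Gjb5 window a TATA box at 243 and an NF-kB match at 135 bases before it, and the Gjb6 window no match. The matches are letters in a window and were not tested for binding. The table held starts for 6 of the 7 members, without Gjc1.

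Gjb1, whose product couples secretory cells in exocrine glands and hepatocytes in liver, was the only tested member that fell. The controls held 89.2, 77.5 and 90.7 CPM and the K5-RANKL pools 17.5, 25.4 and 20.7 CPM. The groups did not overlap, and K5-RANKL 2 was the highest of its group. The mean went from 85.8 ± 7.23 to 21.2 ± 3.99 CPM (SD, n = 3 each), a log2 fold change of −2.03 (SE 0.12, 4.08-fold lower, edgeR adjusted p = 6.79e-09). By library totals the fall was 1.03 on the log2 scale, against a median of all genes of 1.01 upward. The gene (Entrez 14618) lies on chromosome X from 101376376 to 101385629.

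The fall of Gjb1 stood beside a fall of acinar transcripts in the same libraries. All 13 acinar markers tested fell, with a median log2 fold change of −2.25, and their summed level was 32601 to 45102 CPM in K5-RANKL pools, again highest in K5-RANKL 2. By library totals 12 of the 13 still fell. The marker with the most counts, Prol1, which encodes a proline-rich salivary protein, fell by 1.78 on the log2 scale (SE 0.17). Bhlha15 encodes the acinar factor Mist1, which is known to act on the Gjb1 gene in exocrine cells. It went from 539 ± 36.3 to 99.5 ± 19.0 CPM, a log2 fold change of −2.44 (SE 0.12, edgeR adjusted p = 4.83e-09). Like Gjb1, Bhlha15 was highest in K5-RANKL 2 within its group, at 119 CPM. K5-RANKL 1 and K5-RANKL 3 held 99.0 and 80.8 CPM of Bhlha15, while Gjb1 had the opposite order there, at 17.5 and 20.7 CPM. Of 14 markers of luminal duct cells, 10 fell and 4 rose, with a median of −1.25, and by library totals 6 fell and 5 rose. Their summed level was highest of its group in K5-RANKL 2, at 9509 CPM, but Klk1 alone held 8252 CPM of it. Klk1, the kallikrein gene with the most counts on that list, fell by 1.56 (SE 0.14). The 4 that rose were Krt19, Krt8, Cftr and Krt18, by 2.61, 1.11, 1.00 and 0.18. All 4 were lowest of their group in K5-RANKL 2, so the list did not move as a whole with Gjb1. In RNA from whole glands, fewer cells of a type and less RNA per cell cannot be told apart. The part of acinar cells, duct cells or Bhlha15 in the fall of Gjb1 was not tested.

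Gjb2, whose product also joins mixed channels with that of Gjb1, rose in the same pools in which Gjb1 and the acinar markers fell. The controls held 58.9, 59.8 and 59.7 CPM and the K5-RANKL pools 149, 151 and 153 CPM. The libraries of a group were nearly level, with a coefficient of variation of 0.882% in controls and 1.04% in K5-RANKL pools, the lowest of the 10 connexin and pannexin genes tested. The counts behind them were 639, 610 and 763 in controls and 3604, 2818 and 3277 in K5-RANKL pools. Counting error alone would give a larger spread at such counts, so this levelness is not read as a trait of Gjb2. The mean went from 59.4 ± 0.525 to 151 ± 1.56 CPM (SD, n = 3 each), a log2 fold change of 1.34 (SE 0.07, 2.54-fold, edgeR adjusted p = 2.60e-11). Gjb2 (Entrez 14619) lies on chromosome 14 from 57098602 to 57104702.

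Gja1, the most widely expressed connexin, rose as well. It stood at 16.8, 15.6 and 17.2 CPM in controls and at 44.6, 34.4 and 44.0 CPM in K5-RANKL pools. The groups did not overlap, and K5-RANKL 2 was the lowest of its group. From a mean of 16.5 ± 0.828 it went to 41.0 ± 5.73 CPM (SD, n = 3 each), a log2 fold change of 1.31 (SE 0.11, 2.48-fold, edgeR adjusted p = 1.02e-08). Gja1 (Entrez 14609) lies on chromosome 10 from 56377300 to 56390419.

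Markers of several cell types in which Gja1 is known moved in these libraries. Of 9 basal epithelial markers, 7 rose and 1 fell, with a median of 1.30, and their summed level was 336 to 373 CPM in controls and 697 to 1289 CPM in K5-RANKL pools. K5-RANKL 2 held the lowest sum of its group, as it did for Gja1, and by library totals 8 of the 9 rose and none fell. Krt5, the basal keratin gene whose promoter drives the activator, stood at 397, 161 and 368 CPM in the K5-RANKL pools. Of 8 fibroblast markers, 7 rose and none fell, with a median of 1.89 and summed levels of 609 to 811 CPM against 3039 to 3579 CPM. The fibroblast sum, too, was lowest of its group in K5-RANKL 2. All 8 macrophage markers rose, with a median of 2.34 and summed levels of 341 to 416 CPM against 2282 to 2393 CPM. The macrophage sum was highest of its group in K5-RANKL 2. Col3a1, a fibrillar collagen gene, and Lyz2, a lysozyme gene, had the most counts on these lists, with log2 fold changes of 3.13 (SE 0.15) and 2.78 (SE 0.10). Of 8 myoepithelial and smooth muscle markers, 5 fell and 2 rose, with a median of −0.33, summed levels of 457 to 463 CPM against 389 to 433 CPM, and Acta2, the smooth muscle actin gene, at −0.39 (SE 0.07). By library totals none of these 8 fell and 7 rose. The part of these cell types in the rise of Gja1 was not tested.

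**Figure D1:**
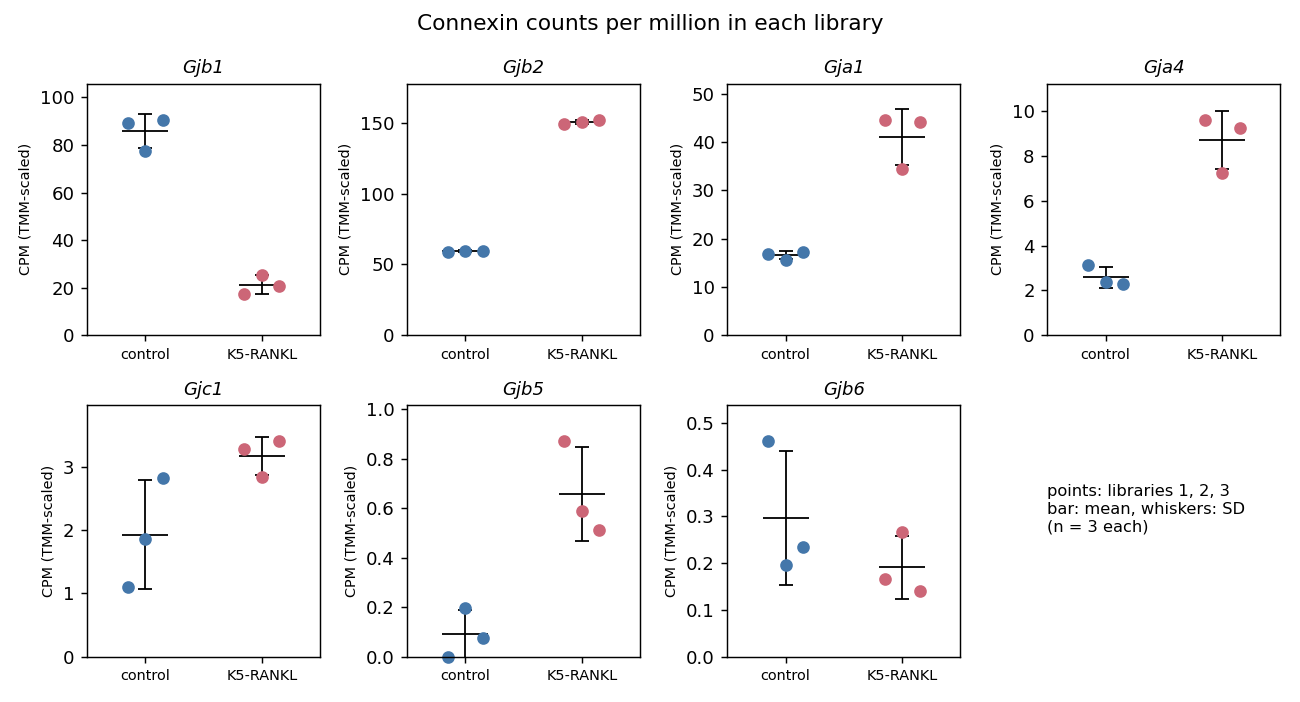
CPM on TMM-scaled library sizes (y axis, starting at 0, with a scale of its own for each gene) of the 7 connexin genes in 3 control and 3 K5-RANKL pools. Each point is a library, in the order 1, 2, 3, bars are means and whiskers SD. Gjb1 sits at 77.5 CPM or more in controls and at 25.4 CPM or less in K5-RANKL pools, Gjb2, Gja1, Gja4, Gjc1 and Gjb5 are higher without overlap, and Gjb6 overlaps.

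Gja4, a connexin of arterial endothelium, rose from a low level. The controls held 3.13, 2.35 and 2.27 CPM and the K5-RANKL pools 9.62, 7.22 and 9.27 CPM. Every K5-RANKL library exceeded every control, and K5-RANKL 2 was again the lowest of its group. The mean went from 2.58 ± 0.476 to 8.70 ± 1.30 CPM (SD, n = 3 each), a log2 fold change of 1.76 (SE 0.18, 3.39-fold, edgeR adjusted p = 1.99e-07). Gja4 (Entrez 14612) lies on chromosome 4 from 127311420 to 127314039.

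Vessel markers moved in both directions beside Gja4. Of 12 endothelial markers, 3 rose, 2 fell and 7 were not called, with a median of 0.18 and summed levels of 173 to 194 CPM in controls and 197 to 207 CPM in K5-RANKL pools. Pecam1, with the most counts on that list, rose by 0.37 (SE 0.08). Of 6 arterial markers tested, 2 rose and 4 were not called, with a median of −0.07 and summed levels of 40.9 to 43.8 CPM against 52.8 to 55.3 CPM. Efnb2, the arterial ephrin gene, rose by 0.64 (SE 0.08), from a mean of 20.1 to 31.3 CPM, and made up most of the rise of the arterial sum. Unc5b rose by 0.32 (SE 0.12), and Hey1, Dll4 and Sox17 were not called, at −0.28, −0.05 and −0.10. The arterial connexin gene Gja5, which encodes Cx40, stood at 1.01, 1.08 and 1.95 CPM in controls and at 1.20, 1.87 and 0.838 CPM in K5-RANKL pools. Its groups overlapped and it was not called (log2 fold change −0.10, SE 0.35, edgeR adjusted p = 0.809). Part of its exons overlaps Gpr89 on the other strand, so its counts are uncertain. By library totals all 12 endothelial and all 6 arterial markers rose, Gja5 among them at 0.89. The part of vessel cells in the rise of Gja4 was not tested.

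Relative to endothelial Cdh5, which encodes VE-cadherin, Gja4 was also higher. There were 151, 115 and 107 Gja4 counts per 1000 Cdh5 counts in controls and 347, 257 and 323 in K5-RANKL pools. The ratio was 2.49-fold higher on the means, with no overlap between groups. Such a ratio within a library does not depend on the scaling between libraries.

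Gjc1, a connexin of smooth muscle and pericytes, showed the smallest called change. Its levels were 1.11, 1.86 and 2.81 CPM in controls and 3.28, 2.83 and 3.40 CPM in K5-RANKL pools. The highest control, control 3, lay just below the lowest K5-RANKL library, K5-RANKL 2. The log2 fold change was 0.69 (SE 0.26, 1.61-fold, edgeR adjusted p = 0.0271), from means of 1.93 ± 0.856 and 3.17 ± 0.297 CPM (SD, n = 3 each). Leaving out control 1 (log2 fold change 0.42, edgeR adjusted p = 0.154), control 2 (adjusted p = 0.0788), K5-RANKL 1 (0.0552) or K5-RANKL 3 (0.0750) ended the call, as did DESeq2 (adjusted p = 0.0559). Without control 3 the log2 fold change was 1.10. Of 6 pericyte markers, 3 rose, 1 fell and 2 were not called, with a median of 0.59. Pdgfrb, which encodes a PDGF receptor, rose by 1.40 (SE 0.09), and Kcnj8 fell by 0.95 (SE 0.15). The summed level of the pericyte markers was 78.6 to 101 CPM in controls and 141 to 159 CPM in K5-RANKL pools, and by library totals 5 rose and none fell. Of the 8 myoepithelial and smooth muscle markers, 5 fell and 2 rose, with a median of −0.33, and by library totals 7 rose and none fell. The part of either cell type in the rise of Gjc1 was not tested. Gjc1 (Entrez 14615) lies on chromosome 11 from 102799477 to 102819686.

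Gjb5, a connexin of stratified squamous epithelium, was nearly absent from control libraries. It had 0, 2 and 1 counts in controls and 21, 11 and 11 counts in K5-RANKL pools. From the summed counts the ratio was 7.54, with a 95% interval of 2.41 to 38.0 that covers counting error only. The fitted log2 fold change was 2.81 (SE 0.67, edgeR adjusted p = 0.00130), and it was 3.77 without control 2 and 2.29 without control 1. Because Gjb5 passed the filter on low counts through the K5-RANKL pools alone, this p-value is not read as support for its rise. The mean level in K5-RANKL pools was 0.657 ± 0.189 CPM (SD, n = 3). Gjb5 (Entrez 14622) lies on chromosome 4 from 127354809 to 127358164.

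Gjb6, a connexin of skin and cochlea that neighbours Gjb2, was too low to test. It had 5, 2 and 3 counts in controls and 4, 5 and 3 counts in K5-RANKL pools. On TMM-scaled sizes the ratio of the summed counts was 0.632, with a 95% counting interval of 0.250 to 1.63, so a change was not detectable at this depth. The summed counts were 10 in controls and 12 in K5-RANKL pools, so by library totals this ratio turns to above 1. Without the filter on low counts the log2 fold change of Gjb6 was −0.62 (SE 0.71, edgeR adjusted p = 0.490). Gjb6 (Entrez 14623) lies on chromosome 14 from 57123301 to 57133611.

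Gjb2 and Gjb6 are neighbours on chromosome 14, where Gja3, Gjb2 and Gjb6 lie within 99.2 kb. Of these Gjb2 rose, Gjb6 was at the counts above, and Gja3 had 1 count in K5-RANKL 1 and 0 in the other libraries.

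Several squamous markers had few or no counts in controls, and the tested ones that reached the filter level in both groups moved both ways. Of 14 listed, 10 were tested, and 5 of these (Krt6a, Krt16, Krt4, Sprr1a and Dsg3) passed the filter through the K5-RANKL pools alone, as Gjb5 did, so they had to be higher. Of the other 5, 2 rose, 2 fell and 1 was not called. Krt6a had 0 counts in all controls and stood at a mean of 1.15 ± 0.484 CPM in K5-RANKL pools (SD, n = 3). The marker with the most counts, the desmosomal plakophilin gene Pkp1, fell by 0.65 (SE 0.11) but was higher by library totals, at 0.35. Summed levels were 83.1 to 103 CPM in controls and 96.1 to 118 CPM in K5-RANKL pools. The part of squamous cells in the rise of Gjb5 was not tested.

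Several other connexin genes were at or near the limit of counting. Gja10, Gjd4 and Gje1 had 0 counts in all 6 libraries, and Gjd3 had 1 count in K5-RANKL 1 alone. Gja6 had 6 counts in controls and 7 in K5-RANKL pools, Gjd2 had 2 and 3, and neither was tested. Gjc3, which encodes Cx29 of Schwann cells, had 12, 5 and 10 counts in controls and 4, 4 and 4 in K5-RANKL pools, a ratio of 0.234 with a 95% counting interval of 0.108 to 0.478, and was not tested. Of 7 Schwann and nerve markers, 2 rose, 3 fell and 2 were not called, with a median of 0.06. Sox10, with the most counts there, fell by 1.18 (SE 0.08), and acinar cells express it too. By library totals 4 of the 7 rose and none fell. Their summed level was 139 to 156 CPM in controls and 129 to 134 CPM in K5-RANKL pools.

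Pannexins form channels of a related fold that open to the outside of the cell. Panx1 stood at 3.96, 4.22 and 3.52 CPM in controls and at 17.3, 12.5 and 14.5 CPM in K5-RANKL pools. Its groups lay far apart, with a log2 fold change of 1.94 (SE 0.16, 3.82-fold, edgeR adjusted p = 7.15e-09). Panx2 had 10 counts in controls and 24 in K5-RANKL pools and was not tested, and Panx3 had 0 counts in all 6 libraries.

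**Figure D2:**
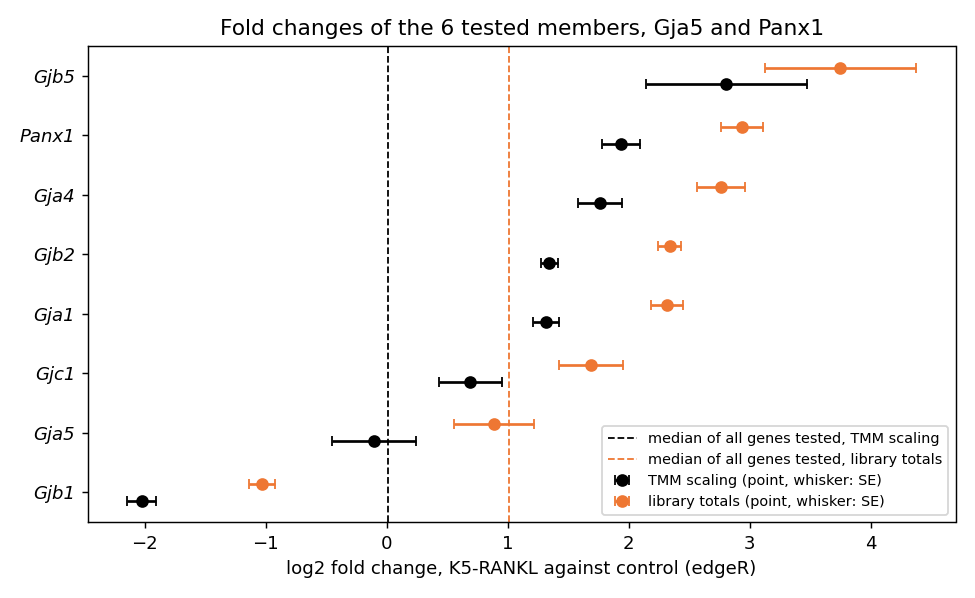
Log2 fold changes of K5-RANKL against control (x axis) of the 6 tested members, Gja5 and Panx1 with TMM scaling (black) and by library totals (orange); points are edgeR estimates, whiskers SE, and dashed lines the median of all genes tested. Gjb1 lies below 0 on both scales, at −2.03 and −1.03, and Gja5 changes sign between them.

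Levels of different genes were compared per kilobase of exon. In controls Gjb1 was the most abundant member, at 52.3, 45.4 and 53.1 CPM per kilobase, and Gjb2 was next at 24.5, 24.9 and 24.8. In K5-RANKL pools the order was turned, with Gjb2 at 62.1, 62.6 and 63.4 CPM per kilobase and Gjb1 at 10.2, 14.9 and 12.1. The library ranges of Gjb1 and Gjb2 did not overlap in either group. Gja1 and Gja4 came next in both groups, with means of 1.61 and 1.53 CPM per kilobase in controls and 4.001 and 5.16 in K5-RANKL pools, and their ranges overlapped in both. Gjc1 followed at means of 0.385 and 0.634. Gjb6 and Gjb5 came last in controls, with overlapping ranges, and in K5-RANKL pools Gjb5, at a mean of 0.382, stood above Gjb6, at 0.0714, without overlap. With the longest RefSeq transcript as length, Gja1 stood above Gja4 in both groups, and in K5-RANKL pools its range of 11.2 to 14.5 CPM per kilobase overlapped that of Gjb1, 11.02 to 16.02.

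The summed level of all 20 connexin genes was 79.8 ± 4.59 CPM per kilobase in controls and 89.5 ± 1.28 in K5-RANKL pools (SD, n = 3 each), 1.12-fold higher without overlap. This sum depends on the scaling: by library totals it was 56.5 ± 2.48 and 127 ± 7.33, 2.24-fold higher, an alternative chosen after seeing the data. Gjb1 made up 64.0, 60.9 and 63.9% of it in controls and 11.6, 16.6 and 13.3% in K5-RANKL pools. Gjb2 made up 29.9, 33.4 and 29.8% in controls and 70.4, 70.0 and 69.8% in K5-RANKL pools. For both genes the groups were far apart, and these shares do not depend on the scaling between libraries. Gja4 went from 1.92% ± 0.330 to 5.77% ± 0.873 and Gja1 from 2.02% ± 0.0202 to 4.47% ± 0.627 (SD, n = 3 each). The value for Gja1 rests on its length: with its longest RefSeq transcript, 3071 bases in place of 10257 bases of merged exons, its share was 6.10% in controls and 13.2% in K5-RANKL pools.

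**Figure D3:**
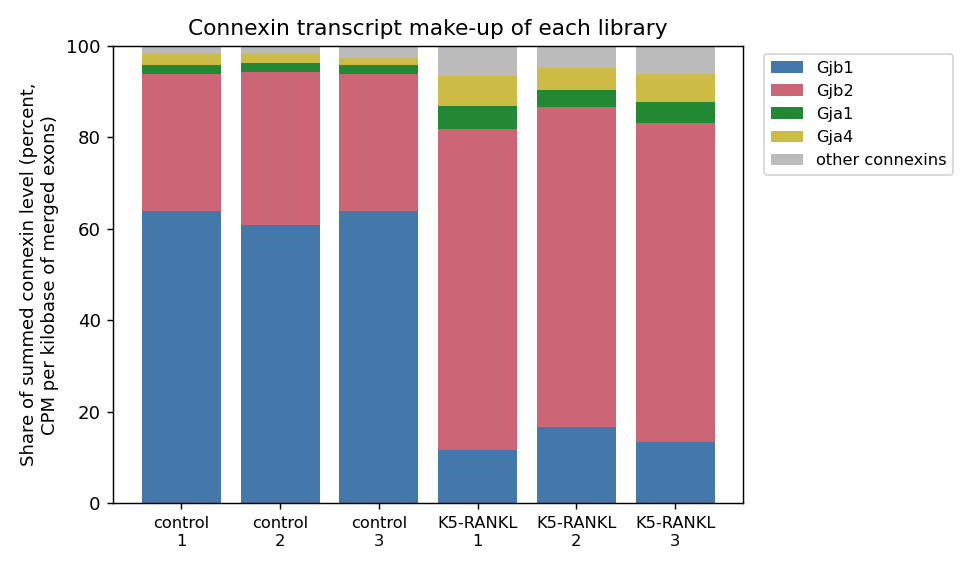
Share of the summed connexin level (percent, y axis, from CPM per kilobase of merged exons) taken by Gjb1, Gjb2, Gja1, Gja4 and the other connexins together in each of the 6 libraries. Gjb1 takes 60.9 to 64.0% of control bars and 11.6 to 16.6% of K5-RANKL bars, and Gjb2 29.8 to 33.4% and 69.8 to 70.4%.

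The ratio of Gjb1 to Gjb2 per kilobase was 2.14, 1.83 and 2.14 in controls and 0.165, 0.238 and 0.191 in K5-RANKL pools. On the means it was 10.3-fold lower in K5-RANKL pools. The exact two-sided permutation test gave p = 0.1, the smallest that 3 against 3 libraries allow. The ratio of Gja1 to Gjb2 was 0.0668, 0.0611 and 0.0676 in controls and 0.0700, 0.0536 and 0.0677 in K5-RANKL pools, with overlapping groups (exact permutation p = 1). These ratios were chosen after their values were seen.

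Ratios to Cdh1, which encodes the epithelial adhesion protein E-cadherin, compare members with an epithelial gene in the same library. There were 394, 355 and 392 Gjb1 counts per 1000 Cdh1 counts in controls and 65.1, 96.2 and 70.3 in K5-RANKL pools. For Gjb2 the values were 260, 274 and 258 in controls and 558, 571 and 519 in K5-RANKL pools. Relative to Cdh1 the Gjb1 groups were apart in one direction and the Gjb2 groups in the other. Gja1 stood at 74.1, 71.5 and 74.4 per 1000 Cdh1 counts in controls and at 166, 130 and 150 in K5-RANKL pools. Gjc1 overlapped, at 4.88, 8.54 and 12.2 against 12.2, 10.7 and 11.6. Over the 14 ratios of members to Cdh1 or Cdh5, the smallest exact permutation p was 0.1 (0.127 after Benjamini-Hochberg adjustment), so no ratio could pass 0.05. Cdh1 and Cdh5 themselves rose by 0.29 (SE 0.07) and 0.44 (SE 0.08), so a ratio shows unequal change of 2 genes.

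**Figure D4:**
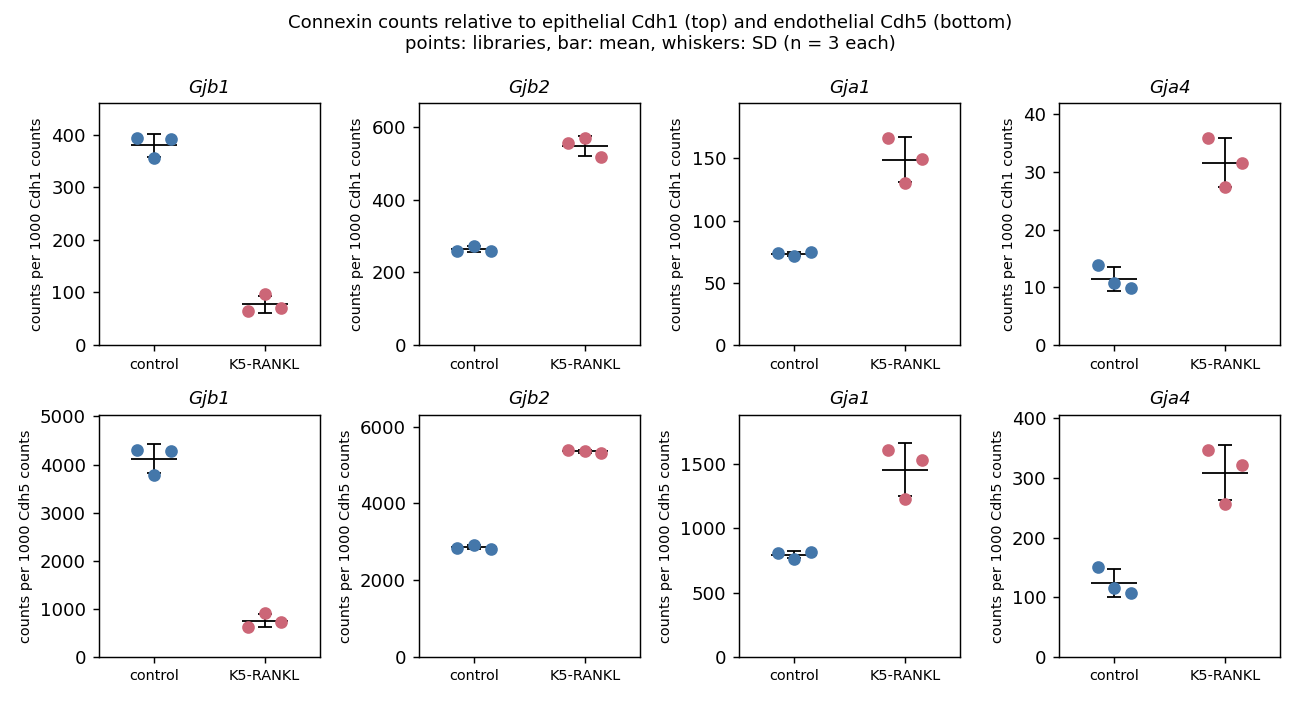
Counts of Gjb1, Gjb2, Gja1 and Gja4 per 1000 counts of Cdh1 (top) or Cdh5 (bottom) in the same library (y axes, starting at 0). Points are libraries, bars means and whiskers SD (n = 3 each). Gjb1 lies at 355 or more per 1000 Cdh1 counts in controls and at 96.2 or less in K5-RANKL pools, and the other 3 genes are higher in K5-RANKL pools without overlap.

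Of 20 genes for partners, trafficking and turnover of connexins, 7 rose, 4 fell and 9 were not called, with a median of 0.04 against 0.01 over all genes tested. The share that rose, 35.0%, was close to the 34.2% of all genes, and the share called, 55.0%, was below the 66.2% of all genes. Rab20, a small GTPase tied to Gja1 protein trafficking, rose by 1.37 (SE 0.11), and Ezr, which encodes the membrane linker ezrin, by 0.94 (SE 0.08). Ubqln4, a ubiquilin that takes part in the turnover of the Gja1 product, fell by 0.51 (SE 0.07), and Tjp1, which encodes the scaffold ZO-1 that binds connexin tails, by 0.46 (SE 0.08). Of 15 kinase and phosphatase genes, 6 rose, 2 fell and 7 were not called, 53.3% called in all, with a median of 0.09. Src rose by 0.78 (SE 0.09) and Mapk3 by 0.56 (SE 0.07), both kinases that phosphorylate the Gja1 product. The receptor phosphatase gene Ptprm and the protein kinase C gene Prkce fell by 0.32 (SE 0.11) and 0.23 (SE 0.09). By library totals all 20 and all 15 rose, as did 83.5% of all genes tested.

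Of 13 genes of the adherens junction, which holds membranes together where gap junctions form, 7 rose, 2 fell and 4 were not called, with a median of 0.29. The share called, 69.2%, was close to the 66.2% of all genes tested, and the share that rose was 53.8% against 34.2%. Vcl, which encodes vinculin, rose by 1.13 (SE 0.08) and the adhesion gene Nectin2 by 0.73 (SE 0.08). Nectin4 and Nectin3 fell by 0.54 (SE 0.09) and 0.32 (SE 0.11), and by library totals all 13 rose. Of 12 transcription factors described at connexin promoters, 9 were tested, 3 rose and 4 fell, with a median of −0.14. Of these 9, 77.8% were called and 33.3% rose. Egr2 rose by 2.34 (SE 0.20) and the AP-1 gene Fos by 0.78 (SE 0.12). Bhlha15 and Sox10 had the smallest p among those that fell, at −2.44 and −1.18. By library totals 5 rose and 1, Bhlha15, fell.

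The genes most like Gjb1 in log2 CPM over the 6 libraries, among 10237 compared, included Smpdl3b and Hdac10 (Pearson r = 0.999758 and 0.999738). For Gjb2 they were Hal, Thbs1 and Lgmn (r = 0.999939, 0.999934 and 0.999785). Hal had 0 counts in all controls. Thbs1, which encodes thrombospondin, stood at 18.7, 19.6 and 20.01 CPM in controls and at 300, 310 and 333 CPM in K5-RANKL pools. With 2 groups this far apart, r largely measures the difference between groups, and it is given as a description.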

How the data were processed

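The authors deposited raw counts of reads per gene for 6 libraries, made from 250 ng of RNA each with a stranded poly(A) kit, per the labels' protocols. Reads were aligned with STAR to mm10, per the submitters' processing notes. For the counting tool, annotation and strand setting, nothing is given in the sources used here. No exon of the 7 members overlaps another gene in GENCODE M21. Groups come from the genotype label, and replicate numbers follow the order of deposition. Within groups the chi-square per gene between libraries was 6.26 to 38.3, so no library repeats another.

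Genes were filtered with filterByExpr (minimum count 10), scaled by TMM and tested over 14044 genes with edgeR 4.0.16 (robust quasi-likelihood F-test, 2 groups, no covariate) in R 4.3.3, with Benjamini-Hochberg adjustment and a threshold of 0.05. SE is the size of the log2 fold change over the root of its F value. Levels per kilobase use merged exons of GENCODE M21, and positions are RefSeq's for GRCm38.p6, by Entrez identifier. Ratios within a library were tested by exact two-sided permutation. The fit was tested on simulated data. Alternatives were other scalings, other filters, DESeq2 1.42.0, limma 3.58.1 (voom), another gene length, other reference genes and each library left out. The members and gene lists were chosen with earlier results of these data known. Of the lists, the 2 called genes with the smallest p per direction are named, and of marker lists the gene with the highest mean CPM; any further gene was picked with its values in view. A few genes that the naming rule covers are not reported here.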

Additional observations from a re-analysis of the deposited data

How the results depend on the processing

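Over the 14 alternatives (4 other scalings, 2 other filters, DESeq2, limma voom and each of 6 libraries left out), Gja1, Gja4, Gjb1 and Gjb2 kept their direction and call in all 14, and Gjb5 in the 13 that tested it, since it had too few counts for a minimum of 50 counts in 3 libraries. Their log2 fold changes ran from 1.25 to 2.32 for Gja1, 1.66 to 2.76 for Gja4, −2.18 to −1.03 for Gjb1, 1.33 to 2.34 for Gjb2 and 2.29 to 3.77 for Gjb5, and the highest value of Gja1, Gja4, Gjb1 and Gjb2 was that by library totals. With 1 library left out they ran from 1.25 to 1.42, 1.66 to 1.92, −2.18 to −1.90, 1.33 to 1.35 and 2.29 to 3.77. Where Gjb5 passed a filter, it did so through the K5-RANKL pools alone, so those kept calls are not support for its direction. Gjc1 lost its call with DESeq2 (0.69) and with control 1, control 2, K5-RANKL 1 or K5-RANKL 3 left out, ran from 0.42 to 1.10 with 1 library left out, was 1.69 by library totals, and had adjusted p from 2.96e-06 to 0.154. Its ratio to Epcam, another epithelial gene, was 0.943-fold in place of 1.35-fold to Cdh1. The rises relative to an epithelial gene were smaller with Epcam than with Cdh1: 1.47-fold against 2.08-fold for Gjb2, 1.43 against 2.03 for Gja1 and 1.95 against 2.75 for Gja4. The fall of Gjb1 was larger, 0.143-fold against 0.203-fold. Gja5, not called, turned to 0.89 by library totals (edgeR adjusted p = 0.0144), 0.29 without control 3 and 0.14 without K5-RANKL 3, within a range of −0.43 to 0.29 with 1 library left out. The cause of these changes was not tested. By library totals 11733 of all genes were called higher and 698 lower, 4799 and 4505 with TMM. With the longest RefSeq transcript as length, Gjb2 held 28.1% and 62.2% of the summed connexin level and Gja1 6.10% and 13.2% in controls and K5-RANKL pools. No paired analysis was possible because the labels give no replicate number that ties a control pool to a K5-RANKL pool. Depth limits Gjb6 in all pools and Gjb5 in controls, which have at most 5 and 2 counts per library there: 3 counts stand for 0.124 to 0.294 CPM.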
